A study of Mus musculus with 12 samples.

Results

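The T cells described here carried transcripts of both Itgae and Cd160. They were chosen by measured values, among the cells of the colon epithelium, small intestinal lamina propria and colon lamina propria libraries by a rule on unique molecular identifiers (UMIs, each standing for 1 captured transcript): 3 or more UMIs of Cd3d, Cd3e and Cd3g together, 1 or more of Itgae and 1 or more of Cd160. The rule found 1882 cells among 20459 CD3-positive gut cells and 32763 cells in all. They are called Itgae+ Cd160+ cells and were described against the 13816 CD3-positive gut cells with 0 UMIs of both genes, called Itgae- Cd160- cells. A further 2015 cells had Itgae alone and 2746 had Cd160 alone.

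The libraries held mouse cells labelled CD4 T cells, recovered from recipients of Th1 cells. The KO cells were Il23r eGFP/eGFP (labelled Il23r KO), and the controls were Il23r wt/eGFP, so that they also carried 1 eGFP allele. Colon epithelium and small intestine had 1 KO and 1 control library each, both with replicate number 2, and colon lamina propria had KO and control libraries with numbers 1 and 2. The sources used here give neither strain nor age of the recipients, nor which part of Il23r the eGFP allele replaces, and do not say that the libraries of a group came from separate animals, so that p-values measure only the spread between these libraries.

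Itgae encodes CD103, the alpha chain of the integrin that pairs with beta 7 and binds E-cadherin on epithelial cells. Cd160 encodes a receptor of the immunoglobulin superfamily that binds HVEM and, weakly, MHC class I molecules, and is found on intraepithelial lymphocytes, NK cells and cytotoxic T cells. T cells that settle in the gut lining commonly gain CD103 and granzymes and lose the receptors by which they would leave the tissue again. In mm10 coordinates of GENCODE vM21, Itgae lies on chromosome 11 from 73090583 to 73147446 on the plus strand, and Cd160 on chromosome 3 from 96798763 to 96829351 on the minus strand.

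The 8 gut libraries held between 13 and 844 Itgae+ Cd160+ cells. The KO libraries gave 443 in colon epithelium, 21 in small intestine, and 35 and 22 in colon lamina propria numbers 1 and 2. The control libraries gave 844 in colon epithelium, 349 in small intestine, and 13 and 155 in colon lamina propria numbers 1 and 2. Summed UMIs of these cells ran from 49976 in the small intestinal KO library to 3265110 in the colon epithelial control library, so that values from the small sums are the least precise. The median cell held 3219 UMIs, against 2770 UMIs in Itgae- Cd160- cells. In the colon lamina propria libraries with number 1 the median Itgae+ Cd160+ cell held 8359 UMIs in KO and 8553 UMIs in control, against 3835 and 4402 UMIs in Itgae- Cd160- cells. Any 2 libraries shared 1 to 27 cell barcodes, and 1 barcode was an Itgae+ Cd160+ cell in both of its libraries.

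Most of the cells passed the rule on few molecules. Of the 1882 cells, 459 had 1 UMI of each gene and 533 had 2 or more of each, while 16 had exactly 3 CD3 UMIs. Just outside the rule, 12 cells had both genes and 2 CD3 UMIs. Transcripts of granzyme A, a protease of cytotoxic granules, averaged 7050 CPM (UMIs of a gene scaled to a total of 1000000 UMIs) over all Itgae+ Cd160+ cells pooled. This level was 4270 CPM in the cells with 1 UMI of each gene and 10100 CPM in those with 2 or more of each. It was 3160 CPM in cells with Itgae alone, 3160 CPM in cells with Cd160 alone and 897 CPM in Itgae- Cd160- cells. Epithelial and myeloid gut cells with 0 CD3 UMIs were taken as background. They were chosen by 5 or more UMIs of Epcam, Krt8, Krt18 and Krt19, or of Lyz2 and Cst3. Among 59 epithelial cells with 0 CD3 UMIs, none had an Itgae UMI, 2 had a Cd160 UMI (3.39%) and none had both, which allows a share of up to 5.08%. Among 36 myeloid cells, none had Itgae, 2 had Cd160 (5.56%) and none had both, which allows up to 8.33%. Their median depths were 2440 and 4860 UMIs.

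Within each genotype, Itgae+ Cd160+ cells made up a larger share of CD3-positive cells in colon epithelium than in the other gut libraries. In the KO colon epithelial library 13.4% of CD3-positive cells had both genes (95% interval 12.3 to 14.7, exact Clopper-Pearson), against 23.1% (21.8 to 24.5) in the control library. In small intestine the share was 2.58% (1.61 to 3.92) in KO and 16.9% (15.3 to 18.6) in control. The KO small intestinal library stood apart, since 49.4% of its cells had under 3 CD3 UMIs, against 8.04% in its control and 1.56 to 10.98% in the other gut libraries, and the part of this in the share was not tested. In colon lamina propria number 2 it was 0.675% (0.423 to 1.02) in KO and 4.78% (4.07 to 5.57) in control. In number 1 it was 1.28% (0.892 to 1.77) in KO and 0.94% (0.501 to 1.6) in control. The KO share was thus lower than the control share in the 3 pairs with number 2 and slightly higher in the pair with number 1, where the intervals overlap. The intervals cover counting error only. The KO small intestinal share and all colon lamina propria shares lie under the 5.08% limit that the epithelial background cells allow. That limit is set by the number of these cells (59, none with both genes, pooled over the gut libraries). It therefore cannot tell whether the shares are background. The mean log2 ratio of KO over control over the 4 pairs was -1.47. An exact two-sided permutation test that swapped genotypes within pairs gave p = 0.25, and 4 pairs cannot reach 0.05. The same mean was -2.10 in the 3 pairs with number 2 alone, where p = 0.25 is the smallest the exact test can give.

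**Figure D1:**
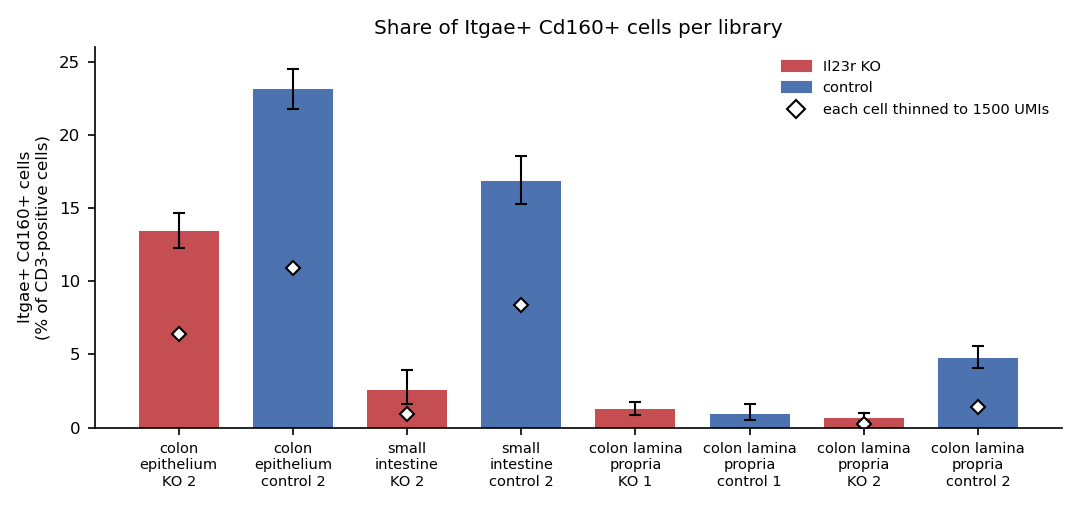
Share of CD3-positive cells that carried both Itgae and Cd160 (percent, vertical axis) in each gut library, KO in red and control in blue. Black bars are 95% exact intervals and diamonds the share after each cell was thinned to 1500 UMIs, not drawn for the colon lamina propria pair with number 1 (0.073% in KO and 0% in control); the tallest bar is the control colon epithelium at 23.1%.

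A share of cells with a UMI depends on depth, so each cell was also thinned to 1500 UMIs and shallower cells were left out. The thinned share was 6.39% in KO and 10.9% in control colon epithelium, 0.939% in KO and 8.34% in control small intestine, and 0.224% in KO and 1.42% in control colon lamina propria number 2. These 3 pairs kept the direction of the unthinned shares. Thinning left out 336 KO and 328 control cells in colon epithelium, 174 and 271 in small intestine, and 584 and 155 in colon lamina propria number 2. Both genes met in the same cell more often than the product of their separate shares, by 1.26 to 4.13 times over the 8 libraries. After thinning the ratio was 1.29 to 2.51 in 7 libraries, and in control colon lamina propria number 1 no thinned cell had both genes. The highest ratios rested on few thinned cells with both genes. They were 2.51 on 2 cells in KO colon lamina propria number 1 and 2.46 on 6 cells in KO small intestine. KO colon lamina propria number 2 had 2.3 on 6 cells. The same rule applied to spleen gave 67 of 9164 CD3-positive cells, with shares of 0.916% and 0.0833% in the KO libraries and 0.704% and 1.34% in the control libraries.

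The name intraepithelial-type was set against markers. CD4 transcripts were present: Cd4 stood at 301, 358, 203 and 261 CPM in Itgae+ Cd160+ cells of KO colon epithelium, small intestine, and colon lamina propria numbers 1 and 2, and at 296, 192, 143 and 203 CPM in the control libraries in the same order. In Itgae- Cd160- cells Cd4 ranged from 195 to 422 CPM. Over 20 alternative fits of the 2 classes its log2 difference ran from -0.33 to -0.118, called in 8. The summed level of 5 CD4 lineage genes, Cd4 among them, had a median of 972 CPM, against 1340 CPM in Itgae- Cd160- cells. It was lower in Itgae+ Cd160+ cells except in KO small intestine, at 1670 against 1530 CPM. CD8 transcripts were rare, since 119 of the 1882 cells had a UMI of Cd8a or Cd8b1. Cd8a had 187 UMIs in Itgae+ Cd160+ cells and 32 in Itgae- Cd160- cells, a log2 difference of 3.99 ± 0.39 (adjusted p = 1.22e-07 by edgeR), with levels of 0 to 53.8 CPM, against 0 to 5.64 CPM. T cell receptor constant genes, including those of gamma delta T cells, were not analysed here, so that the lineage rests on CD3, Cd4, Cd8a and Cd8b1. The CD3 partners Cd247 and Lat did not pass the test against Itgae- Cd160- cells. Among markers of other cells, the summed level of 16 epithelial genes ran from 0 to 268 CPM, against 8.9 to 790 CPM in Itgae- Cd160- cells. The summed level of 11 NK and ILC1 genes, Gzmb among them, ran from 795 to 2910 CPM, against 661 to 1220 CPM, with 1 gene of that list at 0 in Itgae+ Cd160+ cells. Macrophage and monocyte genes summed to 117 to 260 CPM, against 144 to 193 CPM, with 4 of 12 genes at 0. The part of these cells in the results was not tested.

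The remaining genes that mark the cells are given without a test, because they were known as markers when the cells were proposed. Gzma stood at 8890, 916, 2280 and 3930 CPM in Itgae+ Cd160+ cells of KO colon epithelium, small intestine, and colon lamina propria numbers 1 and 2. The control libraries, in the same order, gave 7690, 7040, 762 and 3990 CPM. Itgae- Cd160- cells of these libraries held between 487 and 2300 CPM, and Gzma was higher in Itgae+ Cd160+ cells in all 8 libraries. Ccl5, a chemokine stored by effector T cells, ranged from 2750 to 20800 CPM in Itgae+ Cd160+ cells, against 4160 to 14000 CPM, and was higher in 5 libraries and lower in 3, all of colon lamina propria. Cd244, the receptor 2B4 of the SLAM family, had a median of 29.8 CPM over the libraries, against 2.09 CPM, and 0 UMIs in both classes of the small intestinal KO library. Abi3, an adaptor of the actin regulatory WAVE complex, had a median of 148 CPM, against 95.6 CPM, and was higher in 7 libraries.

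**Figure D2:**
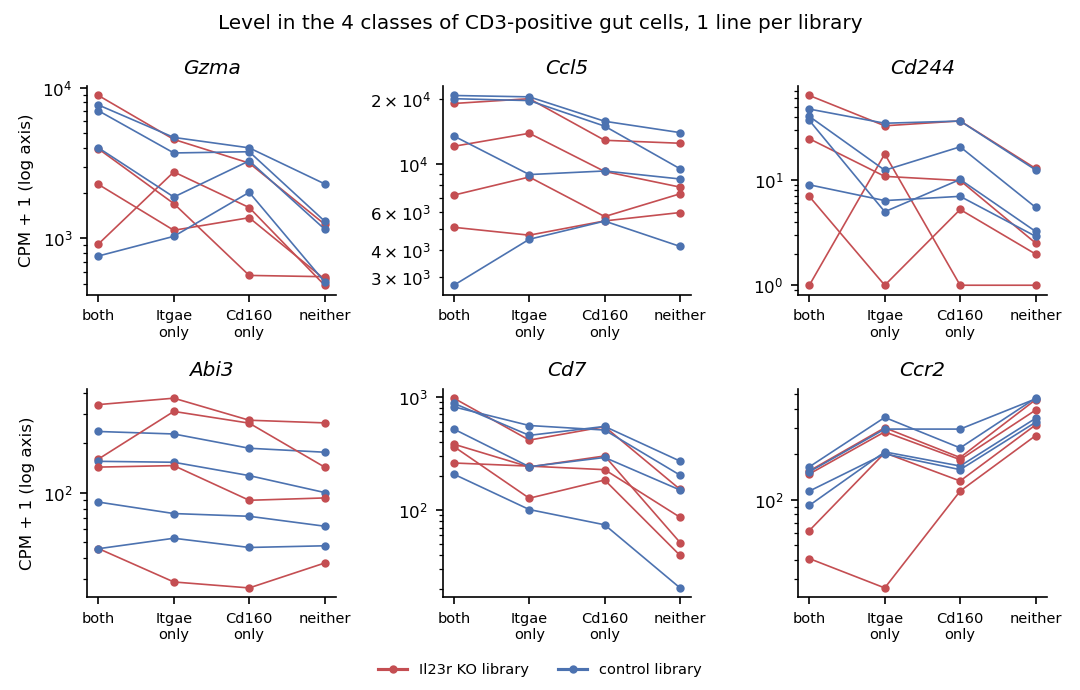
Level (CPM + 1, log axis) of 6 genes in cells with both genes, Itgae alone, Cd160 alone or neither, with 1 line per gut library, KO in red and control in blue. Gzma and Cd7 were higher in cells with both genes than in cells with neither in all 8 libraries, and Ccr2 was lower in all 8.

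The comparison of Itgae+ Cd160+ with Itgae- Cd160- cells asked what else set the cells apart within a library. UMIs were summed per library and class and tested with edgeR's quasi-likelihood test, with the library as a block and with Benjamini-Hochberg adjustment over all genes tested. Of 9533 genes, 568 (5.96%) were higher and 929 (9.75%) lower in Itgae+ Cd160+ cells at an adjusted p under 0.05. Because a cell with more UMIs is more likely to show both genes, Itgae- Cd160- cells were also matched to the others on total UMIs within each library. The medians of both classes then differed by at most 10 UMIs in 7 libraries, but in control colon epithelium, which held 844 of the 1882 cells, they were 3229.5 and 2955.5 UMIs, so that there the match removed the depth difference only in part. Of 6996 genes tested there, 515 (7.36%) were called: 231 (3.3%) were higher and 284 (4.06%) lower. Both comparisons shared 465 called genes, all in the same direction, which is 31.1% of the first set of calls and 90.3% of the second. Over all genes the median log2 difference was -0.05, and -0.01 with matched cells. With all cells DESeq2 called 418 of the 9533 genes higher and 454 lower.

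Cd7, a surface receptor of T and NK cells, rose most among called genes with a mean of 20 CPM or more that were higher in every library. It stood at 970, 259, 362 and 380 CPM in Itgae+ Cd160+ cells of KO colon epithelium, small intestine, and colon lamina propria numbers 1 and 2, and at 874, 813, 206 and 517 CPM in those of the control libraries. Itgae- Cd160- cells held 151, 85.2, 38.7 and 50.6 CPM in the KO libraries and 269, 202, 19.5 and 149 CPM in the control libraries. Within each library the cells with both genes were higher, by 2.19 ± 0.21 on the log2 scale (SE, 8 libraries, adjusted p = 0.000265 by edgeR), and by 2.16 with matched cells (adjusted p = 3.93e-06). A Cd7 UMI was also found in 1.69% of the epithelial and 30.6% of the myeloid cells, beside a Gzma UMI in 10.2% and 2.78%, and the source of these UMIs was not tested. Dapk2, a calcium and calmodulin dependent kinase linked to cell death, rose by 1.12 ± 0.11 in all 8 libraries, and by 1.12 with matched cells. H2-Eb1, a beta chain of MHC class II, rose by 0.96 ± 0.17, from a low level with a median of 35.1 CPM, against 14.9 CPM. The summed level of the 10 dendritic cell genes, H2-Eb1 among them, had a median of 133 CPM, against 69.9 CPM, and 3 of the 10 were at 0 in Itgae+ Cd160+ cells.

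Genes of intraepithelial life and tissue residency did not all move together with all cells. Of 23 tested, 6 rose and 2 fell, with a median log2 difference of 0.03. With matched cells Cd7, Crtam, Litaf and Gpr18 still passed as higher (adjusted p of 3.33e-07 for Litaf and 0.000336 for Gpr18 by edgeR). The 2 that fell, Cxcr6 and Rgs2, did not pass with matched cells (adjusted p of 0.873 and 0.74). Crtam, an adhesion receptor of cytotoxic lymphocytes, rose by 2.33 ± 0.29 (adjusted p = 1.29e-07), with 161 UMIs in all. Its level was 0 in 3 of the 8 libraries of Itgae+ Cd160+ cells, and it was higher in the other 5. Ccr9, the receptor that guides cells to the small intestine, had a median of 44.8 CPM, against 18.5 CPM, and rose by 0.70 ± 0.21 (adjusted p = 0.0408). With matched cells Ccr9 did not pass (adjusted p = 0.0634). Cd38, an enzyme that consumes NAD, rose by 0.39 ± 0.12, and Rgs2, a regulator of G protein signalling, fell by 0.36. Both were called with all cells only. Itga1, the alpha chain of the collagen-binding integrin VLA-1, differed by 0.44 ± 0.20 and Cd69, which holds back egress, by -0.28 ± 0.16. Neither passed the test, with adjusted p of 0.147 and 0.291. Cd69 was lower in Itgae+ Cd160+ cells in 7 of 8 libraries.

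Cytotoxic granule and NK receptor genes rose more often than they fell. Of 22 tested, 8 rose and 2 fell, with a median of 0.31, and with matched cells 6 of 20 rose and none fell. The 2 that fell were Klrg1 (-0.81, adjusted p = 0.00877 by edgeR) and Serpinb9 (-0.39, adjusted p = 0.00785). Klrk1 was lower without passing (-0.845, adjusted p = 0.083). Ctsw, a cathepsin of cytotoxic lymphocytes, stood between 431 and 982 CPM in Itgae+ Cd160+ cells, against 306 to 752 CPM, and was higher in all 8 libraries. Its log2 difference was 0.50 ± 0.08 (adjusted p = 4.15e-06 by edgeR). Cst7, the cathepsin inhibitor cystatin F, rose by 0.48 ± 0.10 and was higher in 7 libraries. Gzmc, a further granzyme, rose by 1.30 ± 0.26 on 89 UMIs and did not pass with matched cells (adjusted p = 0.119). Gzmb, the granzyme that cleaves caspases, had a median of 1170 CPM, against 651 CPM, and was higher in 7 libraries, without passing the test (0.74 ± 0.21, adjusted p = 0.0591). Ccl4, a chemokine of activated T cells, did not pass either (1.06 ± 0.39, adjusted p = 0.128). Tyrobp, the signalling adaptor DAP12 of NK and myeloid receptors, rose by 4.17 ± 0.57, but its 285 UMIs lay in 3 libraries. They came from 15 of 443 cells in KO colon epithelium, 3 of 35 in KO and 2 of 13 in control colon lamina propria number 1, where 38 of 48 UMIs came from 1 cell. Fcer1g, which rose by 3.29, had its UMIs in the same 3 libraries, in 17, 5 and 3 cells in that order.

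Genes of lymphocyte egress and of naive and central memory cells fell together. Of 16 tested, 13 fell and none rose, with a median of -0.99, and with matched cells 9 of 13 fell. S1pr1, the sphingosine phosphate receptor that draws T cells out of tissue, had 9.65, 0, 65.8 and 23.7 CPM in Itgae+ Cd160+ cells of KO colon epithelium, small intestine, and colon lamina propria numbers 1 and 2. The control libraries gave 31.7, 28.7, 35.9 and 53.4 CPM in the same order. Itgae- Cd160- cells held 26.6, 57.2, 50.9 and 36.2 CPM in the KO libraries and 74.1, 78.2, 44.8 and 96.4 CPM in the control libraries. S1pr1 was lower in 7 of 8 libraries and higher in KO colon lamina propria number 1, with a log2 difference of -1.08 ± 0.15 (adjusted p = 1.26e-06), and -1.01 with matched cells. Klf2, the factor that drives S1pr1, fell by 1.10 (SE 0.28, adjusted p = 0.0352) with a median of 216 CPM, against 477 CPM, and did not pass with matched cells (adjusted p = 0.068). Klf3, a related repressor, was lower in all 8 libraries and fell by 1.39 (SE 0.17). Satb1, a chromatin organizer, fell by 0.90 (SE 0.10), the survival gene Bcl2 by 0.80 (SE 0.11) and Il7r, the alpha chain of the IL-7 receptor, by 0.78 (SE 0.10). All 3 also passed with matched cells, and each was lower in 7 or 8 libraries.

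Ccr2, the receptor for the monocyte chemoattractant CCL2, fell most among called genes with such levels that were lower in every library. It stood at 61.5, 39.8, 147 and 154 CPM in Itgae+ Cd160+ cells of KO colon epithelium, small intestine, and colon lamina propria numbers 1 and 2, and at 90.7, 113, 152 and 164 CPM in those of the control libraries. In Itgae- Cd160- cells the lowest library had 264 CPM and the highest 468 CPM, so that the classes do not overlap. The log2 difference was -1.85 ± 0.10 (adjusted p = 4.44e-21 by edgeR), and -1.64 with matched cells. Lower in all 8 libraries were also Anxa1 (annexin A1, -1.41 ± 0.14), Serpina3f (a serine protease inhibitor, -1.58 ± 0.17) and the antiviral membrane protein Ifitm3 (-1.22 ± 0.10). The small GTPase gene Rasl11a fell by 1.29 (SE 0.22) and the membrane protein gene Tmem64 by 1.19 (SE 0.16).

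Th1 genes were lower or not called. Of 17 tested, 8 fell and none rose, with a median of -0.29, and with matched cells 6 fell and 1 rose. The genes that fell include receptors for the cytokines that drive Th1 cells. Ifngr1, a chain of the interferon gamma receptor, had a median of 682 CPM, against 1370 CPM, was lower in all 8 libraries and fell by 0.87 (SE 0.08, adjusted p = 1.91e-11). Il18r1, a chain of the IL-18 receptor, fell by 0.90 (SE 0.11) and Il12rb2, a chain of the IL-12 receptor, by 0.74 (SE 0.11), with lower levels in 7 and 8 libraries. Eomes, a T-box factor, had 14 UMIs in Itgae+ Cd160+ cells and fell by 2.81 (SE 0.37). The Th1 cytokine Ifng had 317, 199, 227 and 119 CPM in Itgae+ Cd160+ cells of KO colon epithelium, small intestine, and colon lamina propria numbers 1 and 2, and 490, 160, 188 and 210 CPM in those of the control libraries. Ifng ranged from 152 to 451 CPM in Itgae- Cd160- cells and did not pass the test (-0.26 ± 0.16, adjusted p = 0.362).

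Of 17 Th17 and IL-23 pathway genes tested, 8 fell and none rose, with a median of -0.37, and with matched cells 4 of 12 fell. Cd9, a tetraspanin, had a median of 10.5 CPM, against 35.8 CPM, and fell by 1.78 (SE 0.20) in all 8 libraries. Tmem176a fell by 0.96 (SE 0.11) and its neighbour Tmem176b by 0.82 (SE 0.11), both ion channels of RORgt-expressing cells. Maf, a factor of Th17 and IL-10-producing cells, fell by 0.83 (SE 0.10). Il23r itself had 3 UMIs in all Itgae+ Cd160+ cells, 1 in the KO and 2 in the control libraries, against 89 in Itgae- Cd160- cells, and was not tested. The latter cells held 2, 6, 28 and 17 UMIs in KO colon epithelium, small intestine, and colon lamina propria numbers 1 and 2. The control libraries held 7, 10, 7 and 12 in the same order. Il17a ranged from 0 to 206 CPM, against 10 to 133 CPM. Il22 ranged from 0 to 3680 CPM, against 23 to 400 CPM, and its highest value, in control colon lamina propria number 1, came from 411 UMIs of which 408 lay in 1 cell.

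Of 10 regulatory T cell and IL-10 genes tested, 6 fell and none rose, with a median of -0.65, and with matched cells 4 of 7 fell. The costimulatory receptors Tnfrsf4 (OX40) and Tnfrsf18 (GITR) were lower in all 8 libraries and fell by 1.04 (SE 0.10) and 0.64 (SE 0.08). Ctla4, the inhibitory receptor for CD80 and CD86, had a median of 354 CPM, against 525 CPM, and fell by 0.66 (SE 0.09) with a lower level in 7 libraries. Foxp3, the defining factor of regulatory T cells, had 2 UMIs in Itgae+ Cd160+ cells and 67 in Itgae- Cd160- cells. Of 13 co-inhibitory receptor and exhaustion genes 2 rose and 3 fell, with a median of 0.12. Havcr2 (TIM-3) rose by 0.72 ± 0.20 with higher levels in 5 of 8 libraries, while Lilrb4a, an inhibitory immunoglobulin-like receptor, fell by 0.91 (SE 0.09). Tigit fell by 0.83 (SE 0.24), with all cells only. Lag3 differed by 0.88 and did not pass with all cells (adjusted p = 0.0589 by edgeR), but passed with matched cells (adjusted p = 8.33e-07). In KO small intestine Lag3 was at 0 CPM in Itgae+ Cd160+ cells, against 67.4 CPM.

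Of 20 proliferation genes, 18 rose and none fell, with a median of 1.27. With matched cells 8 rose and the median was 0.51. Cdca8, a subunit of the chromosomal passenger complex, had a median of 72 CPM, against 20.8 CPM, and rose by 1.60 ± 0.14, and by 0.94 with matched cells (adjusted p = 0.00266). It was higher in 6 of 8 libraries and at 0 in the small intestinal KO library. Mcm5, of the replicative helicase, rose by 1.27 ± 0.12 and, with matched cells, by 0.56 (adjusted p = 0.0173). Ccna2 (cyclin A2) and Cdk1 rose by 1.61 ± 0.14 and 1.51 ± 0.14 and did not pass with matched cells, where their log2 differences were 0.75 and 0.76. Higher in all 8 libraries were Smc2, a condensin subunit (1.21 ± 0.13, and 0.77 with matched cells), Incenp, which anchors Aurora B (1.03 ± 0.13), and Dnmt1, the maintenance DNA methyltransferase (0.86 ± 0.13).

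Of 19 interferon-stimulated genes, 8 fell and none rose, with a median of -0.54, and with matched cells 5 of 15 fell. Gbp2, a guanylate-binding protein, had a median of 59.8 CPM, against 99.9 CPM, with no overlap of the classes: the highest library of Itgae+ Cd160+ cells was at 71.7 CPM and the lowest of Itgae- Cd160- cells at 81.8 CPM. It fell by 0.93 (SE 0.10, adjusted p = 1.24e-09). The immunity-related GTPases Iigp1 and Igtp fell by 1.89 (SE 0.29) and 0.80 (SE 0.12), and the surface antigen Ly6a by 0.73 (SE 0.08). Of 17 antigen receptor response genes, 4 fell and none rose, among them the phosphatase Dusp5 (-0.63 ± 0.09) and the CD40 ligand Cd40lg (-0.54 ± 0.10). With matched cells 2 genes of this list rose and 2 fell. Of 8 AP-1 factors, 1 rose (Batf3, 1.99 ± 0.32) and 4 fell, among them Jund at -0.55 ± 0.08. With matched cells none rose, 1 fell, the median moved to -0.05 beside -0.43 with all cells, and Batf3 did not pass (adjusted p = 0.318). Of 12 TGF-beta feedback genes, 3 fell, among them Bhlhe40 at -0.33 ± 0.08, and none passed with matched cells. Of 17 heat shock genes 1 fell.

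**Figure D3:**
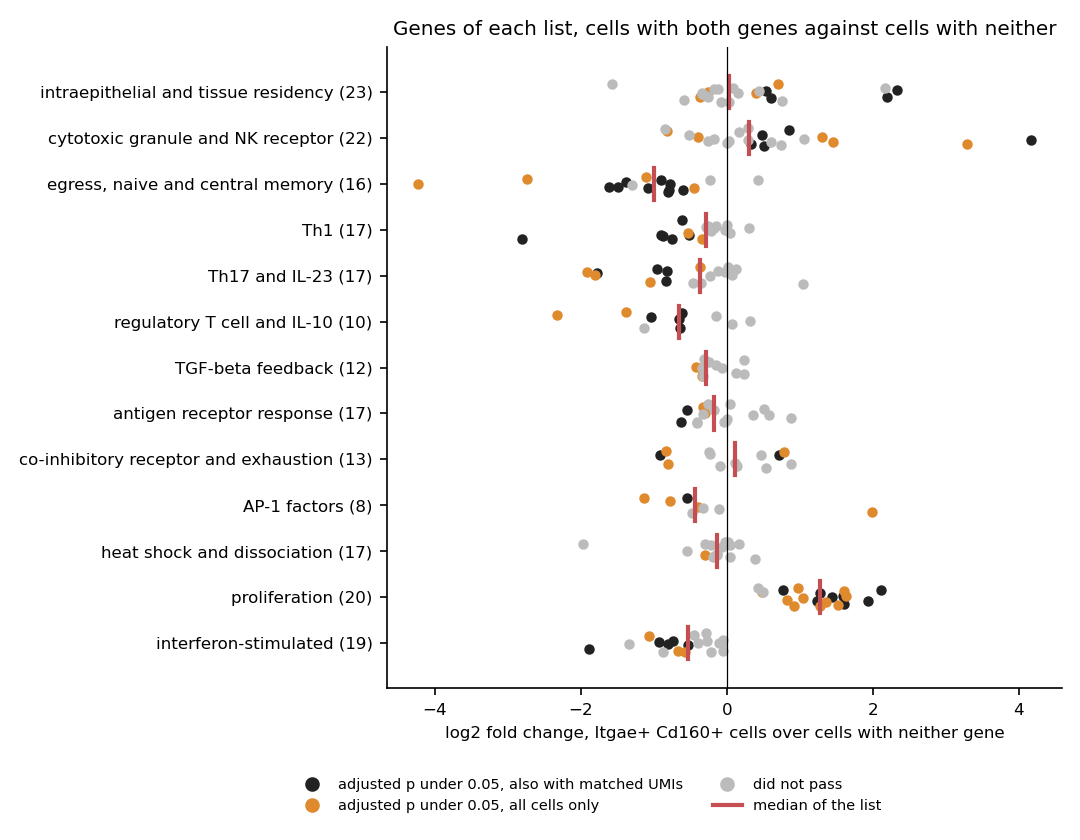
Each point is 1 gene of a list and the horizontal axis its log2 fold change, Itgae+ Cd160+ over Itgae- Cd160- cells, with black points called also against cells matched on UMIs, orange points called with all cells only and grey points not called; the red line is the median and the number in brackets the genes tested. The egress list has its median at -0.99 and the proliferation list at 1.27.

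The number of calls depended on the other class. Against cells with Itgae alone 409 of 7501 genes were called, 173 higher and 236 lower. Against cells with Cd160 alone 70 of 8067 were called, 24 higher and 46 lower. These classes held 2015 and 2746 cells, against 13816 Itgae- Cd160- cells, and the part of cell number in the counts was not tested. The median levels of Cd7 and Ccr2 in cells with 1 of the genes lay between those of the other classes. The median of Cd7 over libraries was 448 CPM in Itgae+ Cd160+ cells, 241 CPM with Itgae alone, 294 CPM with Cd160 alone and 117 CPM with neither. The median of Ccr2 was 130, 243, 175 and 367 CPM in the same order. S1pr1 and Il7r did not differ in this direction from cells with Cd160 alone, with log2 differences of 0.037 and 0.000661. A fit without the library block called 555 of 9150 genes. Once cells over the 98th percentile of UMIs of their library or with over 10% mitochondrial UMIs were left out, 1013 of 9275 were called.

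Within the Itgae+ Cd160+ cells, colon epithelium was compared with colon lamina propria, using the libraries with number 2. Of 7605 genes, 17 (0.224%) were higher and 79 (1.04%) lower in colon epithelium, while the fit left 0 calls whenever any 1 of its 6 libraries was left out. This held also without the control or KO small intestinal library, which are outside the contrast. There 767 and 777 genes had an unadjusted p under 0.05, beside 719 with all 6 libraries. Each such fit has fewer libraries to estimate the spread from, so 0 calls cannot tell how far the 96 calls rest on single libraries. The colon lamina propria sums rest on 22 cells in KO and 155 cells in control. Each tissue had 1 KO and 1 control library in this comparison.

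Among the genes higher in the epithelium, Ccl3, a chemokine of activated T cells, had 224 CPM in KO and 799 CPM in control colon epithelium, against 35.6 CPM in KO and 36.1 CPM in control colon lamina propria (4.15 ± 0.36 on the log2 scale, adjusted p = 3.6e-05 by edgeR). Its UMIs lay in 59 of 443 cells in KO and 159 of 844 cells in control epithelium. Ccl1, a ligand of CCR8, had 356 and 851 CPM in KO and control colon epithelium, against 131 and 37.4 CPM in KO and control colon lamina propria (3.62 ± 0.49). In KO epithelium 363 of its 590 UMIs came from 1 cell. Lag3, an inhibitory receptor for MHC class II, had 276 and 273 CPM, against 119 and 58.8 CPM (1.92 ± 0.34, adjusted p = 0.0115). Ifng had 317 and 490 CPM, against 119 and 210 CPM (1.21 ± 0.26, adjusted p = 0.0388), and Tnf 59.7 and 68.8 CPM, against 0 and 13.4 CPM (2.50 ± 0.49). For these 5 genes both epithelial libraries were above both of lamina propria. Abi3 and Ccl5 rose by 1.39 ± 0.27 and 1.04 ± 0.23. Egr2, a factor induced by the antigen receptor, had 175 UMIs in colon epithelium and 1 UMI in colon lamina propria, a ratio of 29.5 with a 95% counting interval of 5.22 to 1170. Gzma did not pass (1.15 ± 0.87, adjusted p = 0.784).

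Among the genes lower in the epithelium, Il22, a cytokine that acts on epithelial cells, had 1 UMI in 1287 cells of both colon epithelial libraries and 38 UMIs in 177 cells of colon lamina propria. The ratio of these levels was 0.00443, with a counting interval of 0.000109 to 0.0262 that treats UMIs as independent, although 22 of 37 UMIs in the control lamina propria lay in 1 cell. Areg, the growth factor amphiregulin, had 8.44 and 9.44 CPM in KO and control colon epithelium, against 47.5 and 88.2 CPM in KO and control colon lamina propria (-3.07 ± 0.36, adjusted p = 0.000616). The chemokine Cxcl10 was also lower, with 19.9 and 4.87 CPM, against 83.1 and 64.1 CPM (-3.22 ± 0.48, adjusted p = 0.00345). Ctla4 had 71.7 and 62.4 CPM, against 415 and 349 CPM (-2.56 ± 0.30), and Tnfrsf4 72.3 and 123 CPM, against 831 and 552 CPM (-2.74 ± 0.28). Feedback genes of NF-kappa B fell as well, with Nfkbia at -1.86 ± 0.21 and Tnfaip3 at -2.12 ± 0.26. Lower too were the factors Irf4 (-3.09 ± 0.40), Maff (-4.80 ± 0.62), Fosb (-2.90 ± 0.43) and Fosl2 (-2.10 ± 0.34), the granzyme Gzmc (-2.38 ± 0.47) and the granzyme B inhibitor Serpinb9 (-2.72 ± 0.29). Of the egress list, Klf3 fell by 2.73 (SE 0.41) and Satb1 by 1.94 (SE 0.26).

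The lists in this comparison moved as follows. Of 13 co-inhibitory genes tested 1 was called, higher, and the median was 0.73, beside 0.04 over all genes. Of 6 regulatory T cell genes 3 were lower, with a median of -1.45. Of 16 antigen receptor response genes 2 were higher and 4 lower. None of 20 proliferation genes was called. Itgae- Cd160- cells of the same libraries showed related levels: Ctla4 had 103 and 111 CPM in KO and control colon epithelium, against 659 and 423 CPM in KO and control colon lamina propria, and Ccl3 113 and 144 CPM, against 40.6 and 15.4 CPM. A class by tissue term, which tests whether the difference between the classes itself differs between colon epithelium and colon lamina propria, was called for 12 of 9537 genes (0.126%), 10 higher (0.105%) and 2 lower (0.021%). Of the genes named for this comparison they held Fosl2 alone (1.34 ± 0.32, adjusted p = 0.0442 by edgeR). This term is positive, so by this fit the fall of Fosl2 in colon epithelium was smaller in Itgae+ Cd160+ than in Itgae- Cd160- cells. DESeq2 called 0 genes for the term.

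**Figure D4:**
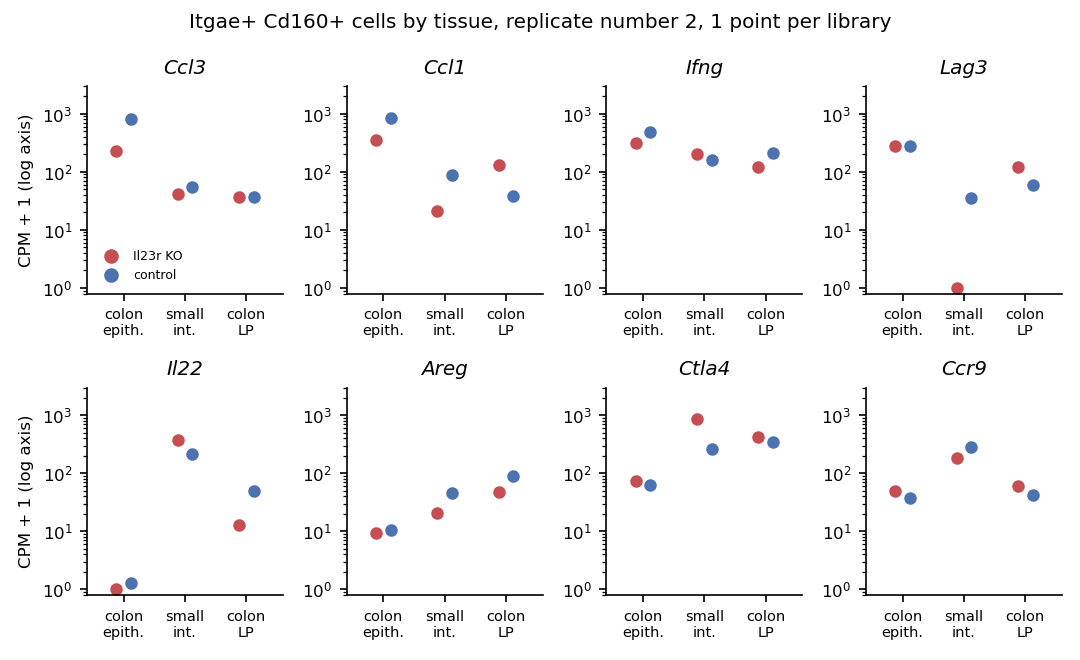
Level (CPM + 1, log axis) of 8 genes in Itgae+ Cd160+ cells by tissue, 1 point per library with replicate number 2, KO in red and control in blue; LP is lamina propria. Ccl3, Ccl1, Ifng and Lag3 were higher in both colon epithelial libraries than in colon lamina propria, and Il22, Areg and Ctla4 lower.

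Between small intestine and colon lamina propria no gene of 7605 was called (0%) by edgeR, where 433 had an unadjusted p under 0.05. DESeq2 called none. The smallest p-values, none of which passed, belonged to Ccr9 and Il22 among genes that were higher. Ccr9 had 179 and 277 CPM in KO and control small intestine, against 59.3 and 41.4 CPM in KO and control colon lamina propria (2.52 ± 0.36, adjusted p = 0.0526). Il22 had 378 and 212 CPM, against 11.9 and 49.4 CPM (2.46 ± 0.38, adjusted p = 0.0526). In control small intestine 83 of 281 Il22 UMIs, and in KO 16 of 19, came from 1 cell. Itgae- Cd160- cells of the same libraries showed the same direction for both genes. Their Ccr9 stood at 93.4 and 178 CPM in KO and control small intestine, against 9.39 and 17.4 CPM in colon lamina propria. Their Il22 stood at 400 and 333 CPM, against 125 and 102 CPM. Hic1, a transcriptional repressor, differed by 2.24 ± 0.38. Among genes that were lower, the MHC class II invariant chain Cd74 had 119 and 130 CPM, against 475 and 399 CPM (-1.75 ± 0.28, adjusted p = 0.0658), and the nuclear lamina gene Lmna 0 and 10.6 CPM, against 119 and 64.1 CPM (-2.73 ± 0.46, adjusted p = 0.0658). The class by tissue term for small intestine was called for 2 of 9537 genes (0.021%), 1 higher and 1 lower (0.0105% each).

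The comparison of KO with control asked whether loss of the IL-23 receptor changed the Itgae+ Cd160+ cells themselves. Across the 8 libraries, with tissue as a covariate, no gene of 6240 was called (0%) by edgeR, where 173 had an unadjusted p under 0.05. DESeq2 called 3 of the 6240, and 19 of 6820 were called without control colon lamina propria number 1, which held 13 of these cells. With each pair of libraries of the same tissue and replicate number as a block, 0 were called. Of 7605 genes tested in the libraries with number 2 alone, 12 were higher and 8 lower. A class by genotype term, which tests whether the difference between Itgae+ Cd160+ and Itgae- Cd160- cells differs between KO and control, was called for 4 of 9537 genes, all lower (0.0419%).

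The smallest p-values belonged to 3 genes that were higher and 3 that were lower in all 4 pairs, none of which passed. Fosb, an AP-1 factor, had 19.3, 139, 89.7 and 142 CPM in KO colon epithelium, small intestine, and colon lamina propria numbers 1 and 2, against 2.13, 19.6, 53.8 and 18.7 CPM in the control libraries (2.46 ± 0.39, adjusted p = 0.0672 by edgeR). Over its 17 alternatives the adjusted p ran from 9.89e-07 to 0.872. The interferon-induced chemokine Cxcl10 had 19.9, 338, 263 and 83.1 CPM in KO, against 4.87, 39.3, 53.8 and 64.1 CPM in control (2.06 ± 0.35, adjusted p = 0.0852). Tox, a factor of chronically stimulated T cells, differed by 1.84 ± 0.42 (adjusted p = 0.482). On the lower side, Plac8 had 465, 398, 796 and 558 CPM in KO, against 829, 1140, 1120 and 1140 CPM in control (-0.97 ± 0.23, adjusted p = 0.482). Ltb, which encodes lymphotoxin beta, had 450, 358, 287 and 439 CPM in KO, against 778, 730, 502 and 606 CPM in control (-0.85 ± 0.20, adjusted p = 0.482). Erdr1 differed by -1.30 ± 0.29. Itgae- Cd160- cells moved the same way in all 4 pairs for Tox, Plac8 and Erdr1. In the same library order Tox had 26.8, 50.2, 16.4 and 22.4 CPM in KO, against 11.2, 15.8, 15.0 and 10.8 CPM in control. Plac8 had 582, 572, 1140 and 676 CPM, against 907, 673, 1490 and 1010 CPM. Cxcl10 and Ltb did so except in colon lamina propria number 1. There Cxcl10 had 113 CPM in KO and 130 CPM in control, and Ltb 317 and 286 CPM.

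Genes of the effector programme did not pass between genotypes. Ifng differed by -0.25 ± 0.25 and Gzmb by 0.31 ± 0.31, both with an adjusted p of 0.999. Il7r differed by -0.98 ± 0.24 (adjusted p = 0.622). All 15 heat shock genes tested and all 7 AP-1 factors had positive log2 differences, with medians of 0.79 and 0.88, beside -0.04 over all genes, but none passed. The chaperone Hsp90aa1 differed by 1.41 ± 0.42. Itgae- Cd160- cells showed the same direction: their summed heat shock level was 8630, 15200, 15400 and 21200 CPM in KO colon epithelium, small intestine, and colon lamina propria numbers 1 and 2, against 5290, 5590, 13800 and 5250 CPM in control. Fosb in these cells was higher in KO in 3 of 4 pairs, with 46.1, 114, 123 and 225 CPM, against 2.46, 27.8, 141 and 17.4 CPM. Both lists are known to respond to tissue dissociation, whose part in the difference was not tested. Within colon lamina propria alone, with KO and control libraries numbered 1 and 2, no gene of 3094 was called (0%) by edgeR, where 44 had an unadjusted p under 0.05. DESeq2 called 0 and left 9 at an unadjusted p under 0.05. The fit with the replicate block called 2 genes, 1 higher and 1 lower, and leaving out 1 library gave 0 to 18.

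**Figure D5:**
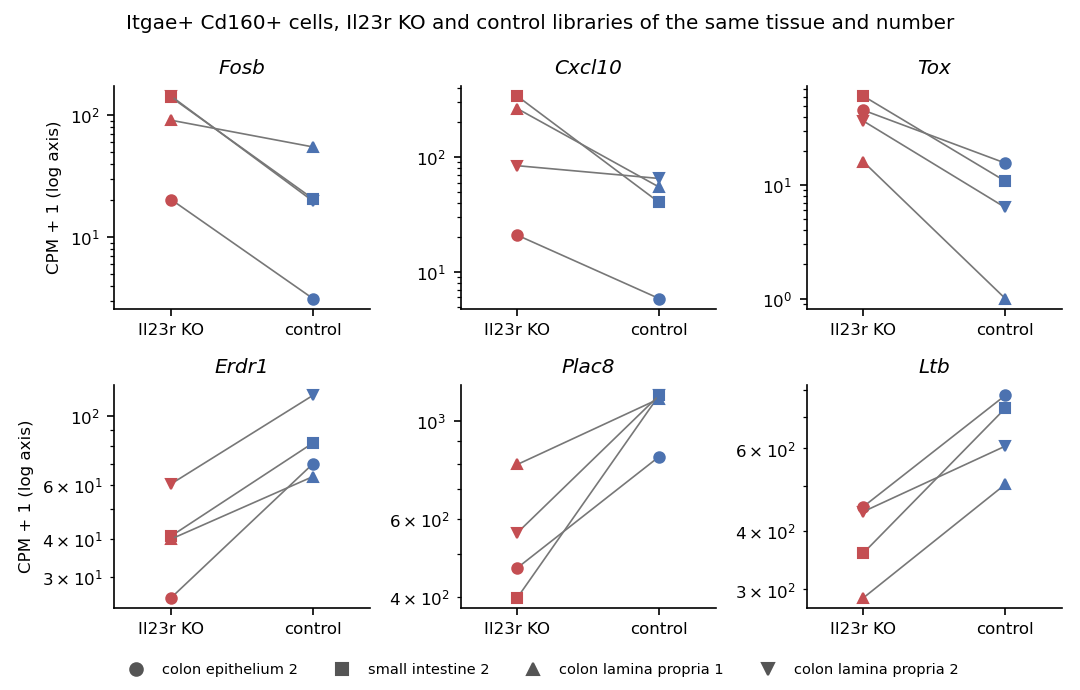
Level (CPM + 1, log axis) in Itgae+ Cd160+ cells of KO (red) and control (blue) libraries, with lines that join the libraries of the same tissue and replicate number. Fosb, Cxcl10 and Tox were higher and Erdr1, Plac8 and Ltb lower in KO in all 4 pairs, and none passed the adjusted threshold.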

How the data were processed

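Single cells were sequenced with the 10x Genomics 3' v2 kit, per the labels' protocols. The deposited table holds whole-number UMI counts for 18601 genes and 32763 cells, made with Cell Ranger 2.0.2 on mm10, per the submitters' processing notes; the sources used here do not give its filters on cells. Doublets were not called. The batch number given for each cell equals the replicate number in all cells. Of the per-cell columns, 2 were not used.

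The members and gene lists were chosen with earlier results of these data known. UMIs were summed per library and class (10 or more cells) and tested with edgeR 4.0.16 (TMM, filterByExpr, glmQLFit with robust estimates) in R 4.3.3, at an adjusted p under 0.05. Cd3d, Cd3e, Cd3g, Itgae and Cd160 were removed first. The current quasi-likelihood estimate of the spread was chosen after results of the current and the older one had been seen. Named genes were those with the 10 largest changes each way, a mean of at least 20 CPM and every library on the same side, or the 4 with the smallest p in a list, beside a set of markers and cytokines always looked up; where none passed, the 3 smallest p each way. Foxp3, Cd247, Lat and the Tyrobp, Fcer1g, Il22 and Ccl1 cell counts were added after their values were seen. So were Litaf, Gpr18, Cxcr6, Klrg1, Klrk1, Serpinb9, Fcer1g and Lag3 in the comparison of the classes. In colon lamina propria, deviations of same-numbered libraries correlated by 0.0278 in Itgae+ Cd160+ cells and 0.546 in Itgae- Cd160- cells. DESeq2 1.42.0, other scaling, filters, classes of cells and single libraries left out were tried as alternatives. The procedure was tested on simulated data. With at most 2 libraries per tissue and genotype, the number of libraries limits the precision.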

Additional observations from a re-analysis of the deposited data

Results flagged for a closer look

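The difference between Itgae+ Cd160+ and Itgae- Cd160- cells itself differed between KO and control for 4 genes by a class by genotype term in edgeR, while DESeq2 called none. Klrk1, which encodes NKG2D, had a log2 term of -1.35 ± 0.23 (adjusted p = 0.000125). In Itgae+ Cd160+ cells its level was 54.3, 39.8, 92.7 and 83.1 CPM in KO colon epithelium, small intestine, and colon lamina propria numbers 1 and 2, against 95.3, 49.9, 206 and 158 CPM in the control libraries. In Itgae- Cd160- cells it was 225, 36.2, 194 and 291 CPM in KO and 141, 49.7, 283 and 153 CPM in control. Csf1, a growth factor of macrophages, had a term of -1.82 ± 0.38. Lypd8 and Saa1, secreted by gut epithelium, had terms of -4.22 ± 0.70 and -5.87 ± 1.09. Both were highest in the KO colon epithelial library, where Itgae+ Cd160+ cells held 21.1 and 4.82 CPM and Itgae- Cd160- cells 262 and 185 CPM.

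The difference differed between colon epithelium and colon lamina propria for 12 genes, and DESeq2 called none. Reg3b, an antimicrobial lectin of epithelium, had a term of 12.1 ± 1.68, a fitted value that is no bound because its UMIs in Itgae+ Cd160+ cells of colon lamina propria were 0; 106 of its 143 UMIs in KO colon epithelium lay in 1 cell. On the other side of the term, 823 of its 834 UMIs in Itgae- Cd160- cells of control colon lamina propria number 2 also lay in 1 cell. For small intestine against colon lamina propria its term was 9.59 ± 2.0, on 7 UMIs in the small intestinal libraries. Positive terms were found for Tnfrsf9 (1.67), Nr4a2 (1.49), Fosl2 (1.34), Kpna1 (1.24), Isg15 (1.17), Cenpa (1.08), Crem (1.02), Lmnb1 (0.97) and Crbn (0.87). Negative terms were found for Nrgn (-2.43) and Cd83 (-3.23). Nr4a2, induced by antigen receptor signals, had 64.5 and 96.2 CPM in Itgae+ Cd160+ cells of KO and control colon epithelium, against 41.8 and 24.3 CPM in Itgae- Cd160- cells.

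Outside the comparisons, 25 gut cells with under 3 CD3 UMIs carried both Itgae and Cd160, and 67 CD3-positive spleen cells met the same gene rule.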

How the results depend on the processing

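Genes with a quasi-likelihood call were counted again under each alternative, and the cause of a change was not tested. Against Itgae- Cd160- cells the 1497 calls became 872 with DESeq2, 515 with cells matched on UMIs, 409 and 70 against cells with Itgae or Cd160 alone, and 555 with no replicate block (library); leaving out 1 library gave 1108 to 1498. Between KO and control the 0 calls became 3 with DESeq2 and with the older estimate of the spread, 27 with no filter, 1 without high-UMI or mitochondrial cells, 20 with number 2 alone (the older estimate and number 2 alone were chosen after seeing the data), and 0 to 19 without 1 library. In colon lamina propria the 0 became 2 with the replicate block, 1 without high-UMI cells and 0 to 18 without 1 library. For colon epithelium against lamina propria the 96 became 62 with DESeq2, 186 with no filter and 196 with the older estimate, and 0 to 0 without 1 library; all 8 libraries with the block gave 75. For small intestine the 0 became 31 with no filter, 36 with the older estimate and 2 without high-UMI cells. The class by genotype term (4) gave 0 with DESeq2, 12 with no filter, 15 with the older estimate, 9 without high-UMI cells, 2 with CD3 UMIs of 5 or more and 0 to 23 without 1 library. The class by epithelium term (12) gave 0 with DESeq2, 5 with its size factors, 35 with no filter, 19 with the older estimate, 5 without Cd8a or Cd8b1 cells, 5 with CD3 UMIs of 5 or more and 1 to 20 without 1 library. The class by small intestine term (2) gave 0 with DESeq2, its size factors or CD3 UMIs of 5 or more, 5 with no filter, 7 with the older estimate and 0 to 7 without 1 library. The share ratio kept its sign, from -1.02 to -2.10 without 1 library, -2.20 when thinned (3 pairs, which gave -2.10 unthinned), and with no replicate block the exact permutation p was 0.314. Among the named genes followed over the alternatives, the sign changed only against cells with Itgae alone (Itga1 -0.027, Gzmb -0.10, Ifng 0.30, Rgs2 0.030) or Cd160 alone (Cd69 0.023, S1pr1 0.037, Il7r 0.000661, Havcr2 -0.12).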
